A study of Mus musculus with 14 samples.

Results

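The genes described here make, conjugate and move bile acids in the liver, or control that pathway. They were 10 listed genes of 24411 named in the count files: Cyp7a1, Cyp8b1, Cyp27a1 and Cyp7b1 for synthesis, Slc27a5 and Baat for conjugation, Slc10a1 and Abcb11 for transport, and the nuclear receptor genes Nr1h4 and Nr0b2. All 10 were found in the counts and all 10 passed the filter on low counts. Whole liver RNA came from male littermates aged 5 to 7 months. WT mice were Rbbp5 flox/flox without Alb-CRE, and LKO mice were Rbbp5 flox/flox with 1 Alb-CRE allele, so both genotypes carried the floxed alleles. The albumin promoter drives Cre in hepatocytes. Rbbp5, which encodes a core subunit of the H3K4 methyltransferase complexes, was measured in whole liver and not by cell type. Mice were injected intraperitoneally with 0.05 mg/kg tunicamycin, which blocks N-linked glycosylation and stresses the endoplasmic reticulum (ER), or with vehicle, which was 3% DMSO in PBS. Injections were given in the morning, from 9 to 10, and tissue was collected after 8 h. The samples were 3 WT vehicle, 3 WT tunicamycin, 3 LKO vehicle (4 libraries, of which libraries 3 and 4 were summed) and 4 LKO tunicamycin.

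Bile acids are made from cholesterol in hepatocytes, and in mice their synthesis is shared between a classic route, which starts with Cyp7a1, and an alternative route, which runs through Cyp27a1 and Cyp7b1. The products are joined to taurine, pumped into bile, and taken back from portal blood. Bile acids bind the receptor FXR, encoded by Nr1h4, which induces Nr0b2, the gene of the repressor SHP, and SHP in turn lowers transcription of Cyp7a1 and Cyp8b1. Several of these genes also follow the time of day.

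Each library held 6507018 to 13519421 reads on the gene's strand, of which 72.5% to 75.5% fell on the ribosomal RNA gene Rn45s, so that 1704479 to 3551398 reads remained for all other genes. The counts of libraries 3 and 4 of LKO vehicle lay close to sampling noise, slightly above it, and both libraries were counted as 1 sample. Their chi-square per degree of freedom was 1.12 over all genes, against 3.38 to 25.9 for the other pairs within groups. For genes with 20 to 200 reads it was 1.02, against 1.33 to 2.65 for the other pairs. Against the other WT tunicamycin samples, WT tunicamycin 3 had values of 25.8 to 25.9 over all genes, a measure that grows with depth, and 2.44 to 2.65 for genes with 20 to 200 reads. WT tunicamycin 1 and 2 had 6.23 and 2.24 against each other, so sample 3 stood apart mainly in the value over all genes. WT tunicamycin 3 held 6969341 reads, the fewest of its group. In WT tunicamycin 3 the plasma protein gene Trf was at 1904 CPM (the library-size scaled read count), near the 1835 to 1969 CPM of WT vehicle, while WT tunicamycin 1 and 2 had 4218 and 5769 CPM. In WT tunicamycin 2 the ER stress gene Ddit3 was at 1.29 CPM, while WT tunicamycin 1 and 3 had 26.2 and 20.3 CPM. Rbbp5 itself was at 4.06 to 6.40 CPM in the 6 WT samples and at 1.90 to 4.14 CPM in the 7 LKO samples, and the highest of these, the library labelled LKO vehicle 1, lay within the WT range. Averaged over treatments Rbbp5 fell in LKO by 0.89 ± 0.18 on the log2 scale (SE, adjusted p = 0.0181), and without WT vehicle 2 the adjusted p was 0.0651. Nothing in the labels says whether the samples of a group were prepared apart beyond being separate samples, so p-values measure the spread between these samples. The hepatocyte list (Alb, Apoa1, Ttr, Trf, Fgb, Ahsg, Cps1 and Tat) summed to 19560 to 34500 CPM over all samples, and the 4 haemoglobin genes had 0 reads in every sample of the count files, while the authors' FPKM table lists Hbb-bs at group means of 5.16 to 14.8.

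The 10 genes covered a wide range of levels. In FPKM, which the authors scaled by gene length, WT vehicle livers held 45.9 ± 5.08 (SD, n = 3) of Slc10a1 and 34.1 ± 2.83 of Cyp7b1 at the top of the order. Slc27a5 at 21.5 ± 0.791, Cyp27a1 at 19.7 ± 1.86 and Baat at 17.0 ± 1.01 FPKM followed, and neighbours among these 3 overlapped between samples. Abcb11 stood at 10.0 ± 0.488 FPKM, below all of them and above Cyp7a1 at 6.32 ± 2.45 and Nr1h4 at 5.52 ± 0.615, which overlapped. Cyp8b1 at 3.39 ± 1.09 and Nr0b2 at 1.32 ± 0.388 FPKM closed the order, each apart from its neighbours. With only 8 to 44 reads per sample, Nr0b2 also had the thinnest counts of the 10. In LKO tunicamycin livers Nr0b2 was again lowest, at 0.548 ± 0.150 FPKM (n = 4).

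**Figure D1:**
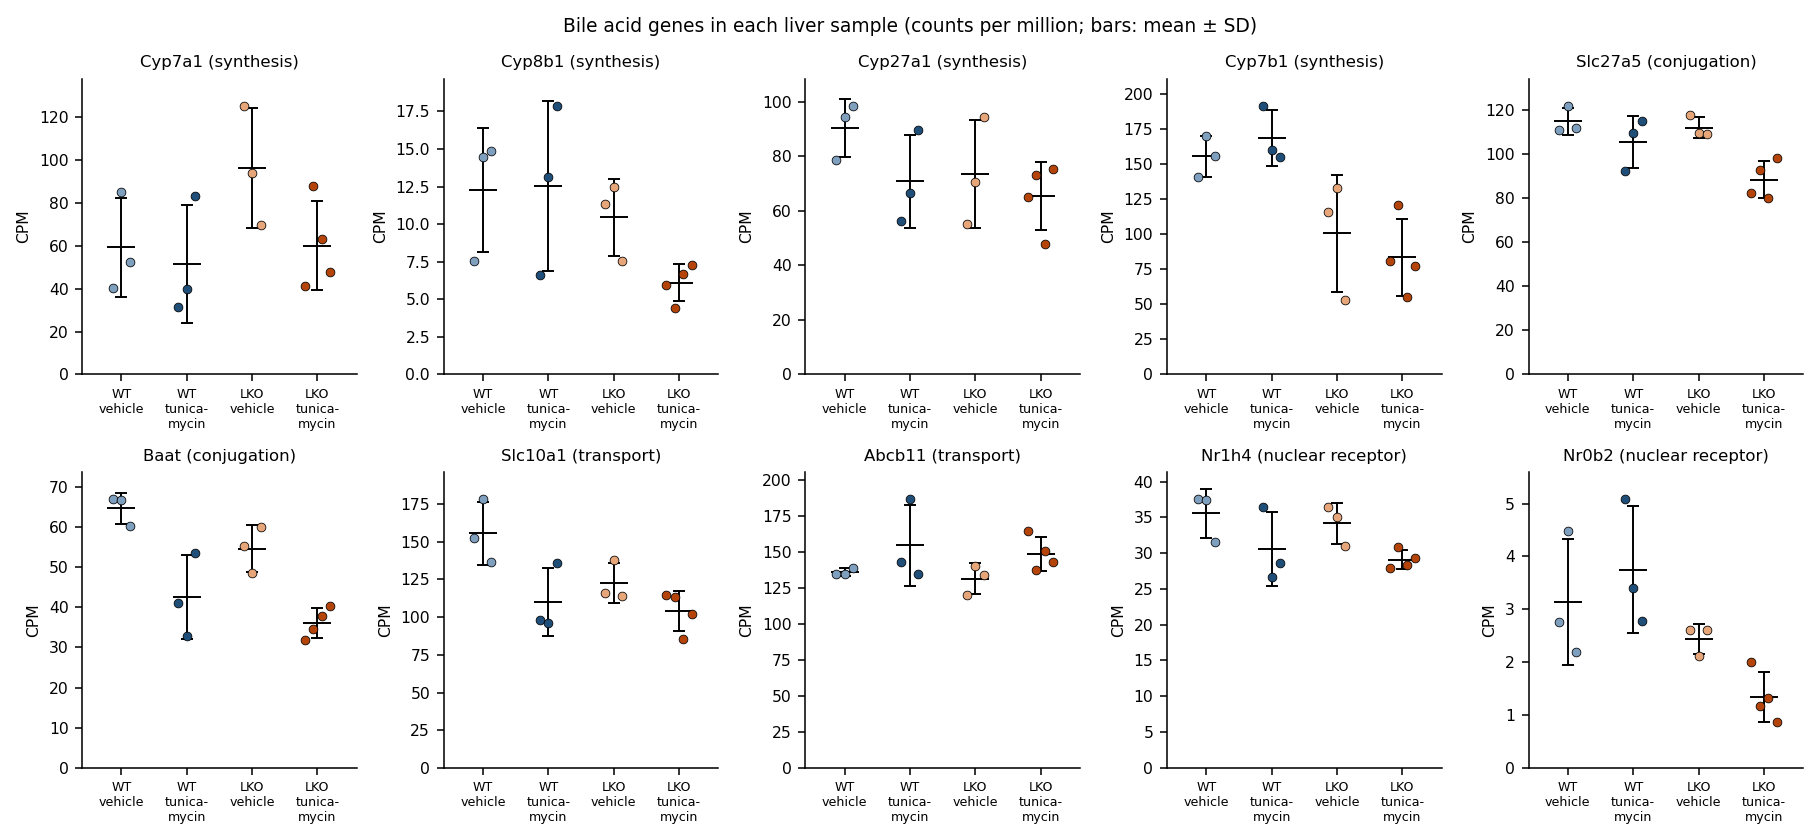
Each point is 1 liver sample, the vertical axes give CPM from 0, and the bars are the mean ± SD of WT vehicle (n = 3), WT tunicamycin (n = 3), LKO vehicle (n = 3) and LKO tunicamycin (n = 4). Cyp7b1 is lower in all 7 LKO samples than in all 6 WT samples, Baat is lower after tunicamycin in both genotypes, and Nr0b2 is lowest in LKO tunicamycin at 0.867 to 1.995 CPM.

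Of the 10 genes, 3 passed the test in any comparison, and all 3 were lower. Nr0b2, encoding the repressor SHP, fell in LKO against WT after tunicamycin to 0.351 of the WT level. Averaged over both treatments, Cyp7b1, the oxysterol 7-alpha-hydroxylase of the alternative route, was at 0.565 and Nr0b2 at 0.520 of the WT level in LKO. Baat, the enzyme that joins bile acids to taurine, fell with tunicamycin to 0.660 of the vehicle level, averaged over both genotypes. The other 7 genes passed in no comparison. Whole liver RNA cannot tell apart fewer cells of a type and less RNA per cell.

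**Figure D2:**
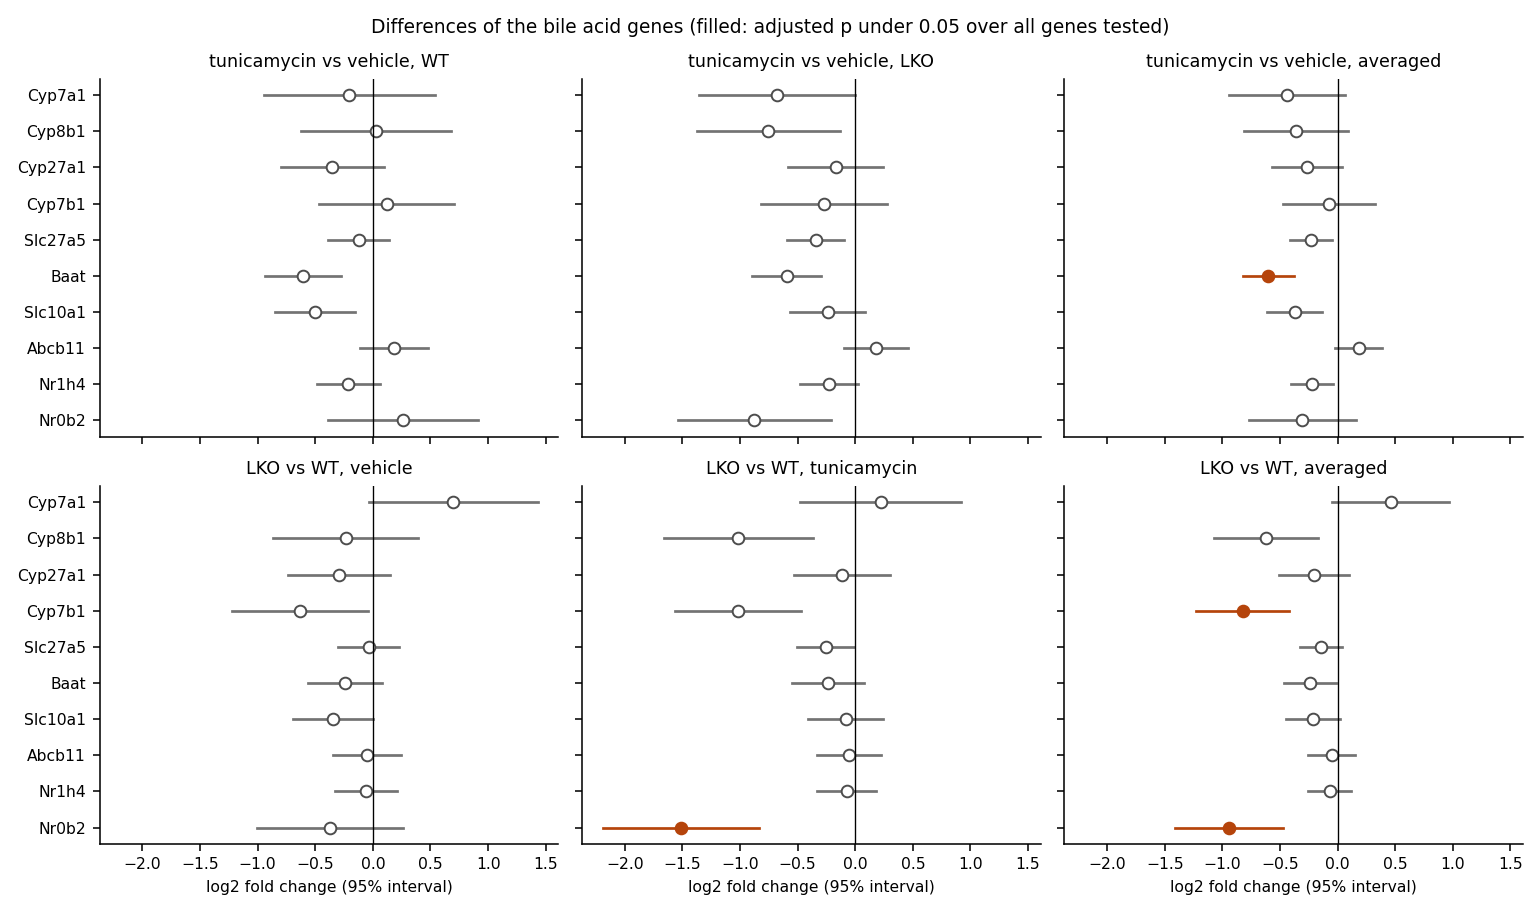
Each panel gives the log2 fold change of the 10 genes in 1 comparison, with its 95% interval, from edgeR's quasi-likelihood fit. Filled points passed an adjusted p of 0.05 over all 9644 genes tested: Baat with tunicamycin averaged over genotypes, Nr0b2 in LKO after tunicamycin, and Cyp7b1 and Nr0b2 in LKO averaged over treatments.

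Counts over the 10 genes are read against the same counts over all 9644 genes tested. With tunicamycin in WT, 0 of the 10 passed edgeR's test (1 with DESeq2), against 0.363% of all genes. At an unadjusted p under 0.05 there were 2 of the 10, Baat and Slc10a1, against 14.8% of all genes, and the same 2 genes had groups that did not overlap, against 17.3%. In LKO, 0 of the 10 passed (1 with DESeq2), against 0.0311% of all genes. There, 5 had an unadjusted p under 0.05, against 12.2%, and 5 had groups that did not overlap, against 11.6%. Of the 10 genes, 9 were lower with tunicamycin in LKO and 6 in WT, where 49.2% and 48.3% of all genes were lower. Under some alternatives the sign changed for Cyp7a1, Cyp8b1, Cyp7b1, Abcb11 and Nr0b2 in WT and for Cyp27a1 in LKO. Averaged over genotypes, 1 of the 10 passed, against 4.31% of all genes. For that average 4 had an unadjusted p under 0.05, against 20.2%, and 0 had groups that did not overlap, against 0.83%. The median log2 fold change of the 10 was -0.16 in WT, -0.31 in LKO and -0.29 averaged, beside 0.01, 0.0045 and 0.01 over all genes tested.

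Between genotypes 9 of the 10 genes were lower in LKO in each of the 3 comparisons, which share samples, where 49.1%, 52.0% and 50.7% of all genes were lower (vehicle, tunicamycin and averaged), and Cyp7a1 was the exception each time. Not all of these signs held: under some alternatives they changed for Nr1h4 and Abcb11 in all 3 comparisons, for Slc27a5 with vehicle, and for Cyp27a1, Slc10a1 and Cyp7a1 after tunicamycin. Total count scaling moved the median of all genes to 0.14 after tunicamycin, farther from 0 than the values of Cyp27a1, Slc10a1, Abcb11 and Nr1h4 there. With vehicle, 0 of the 10 passed edgeR's test (0 with DESeq2), against 0.0415% of all genes. There, 1 had an unadjusted p under 0.05, against 8.18%, and 2, Cyp7b1 and Baat, had groups that did not overlap, against 15.1%. After tunicamycin 1 of the 10 passed, against 0.861% of all genes. There, 4 had an unadjusted p under 0.05, against 15.8%, and 2, Cyp7b1 and Nr0b2, had groups that did not overlap, against 12.9%. Averaged over treatments 2 of the 10 passed, against 2.21% of all genes. In that average 4 had an unadjusted p under 0.05, against 18.0%, and 1, Cyp7b1, had groups that did not overlap, against 1.09%. The median log2 fold change of the 10 was -0.24 with vehicle, -0.17 after tunicamycin and -0.21 averaged, beside 0.0045, -0.01 and -0.0041 over all genes.

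Whether the response to tunicamycin itself differed between genotypes was tested as an interaction. None of the 10 passed (0 with edgeR and 0 with DESeq2), against 0.0% of all genes, and 1, Nr0b2, had an unadjusted p under 0.05, against 4.91% of all genes. For Nr0b2 the difference between the tunicamycin effects was -1.14 ± 0.44 (log2, SE; adjusted p = 0.937), and for Cyp8b1 -0.78 ± 0.43 (adjusted p = 0.981). The interval for Nr0b2 ran from -2.07 to -0.21. The other 8 genes lay between -0.48 and 0.26. As a check of the treatment, 5 of 5 ER stress genes (Hspa5, Hsp90b1, Pdia4, Sdf2l1 and Ddit3) rose in WT and 0 of 5 passed in LKO, where all 5 were higher. After tunicamycin 4 of 5 were called lower in LKO than in WT, the comparison in which Nr0b2 was called. In the interaction 0 of 5 passed (adjusted p 0.937 to 0.947) and 5 of 5 had an unadjusted p under 0.05. WT tunicamycin 2 was the lowest treated WT sample for all 5 genes. In the order above it had 313, 411, 128, 10.85 and 1.295 CPM, beside WT tunicamycin means of 650, 625, 189, 16.1 and 16.0. All of these values but that of Ddit3 lay above the highest WT vehicle sample (252, 281, 69.5 and 5.26 CPM).

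Cyp7b1 was the synthesis gene with a called difference. In CPM it stood at 141, 170 and 155 in WT vehicle, and at 192, 160 and 155 in WT tunicamycin. In LKO it stood at 116, 133 and 53.3 with vehicle, and at 80.6, 121, 55.3 and 77.1 after tunicamycin. Every LKO sample was below every WT sample, and the LKO samples varied more. Averaged over treatments the log2 fold change was -0.82 ± 0.19 (SE; interval -1.23 to -0.42, adjusted p = 0.0349). It was -0.63 ± 0.28 with vehicle (adjusted p = 0.572) and -1.02 ± 0.26 after tunicamycin (adjusted p = 0.0743), where it passed with DESeq2 (0.0151), without a filter (0.000787) and without LKO vehicle 3 and 4 (0.0215). The averaged call was lost without any of WT vehicle 1, 2 or 3, WT tunicamycin 1, or LKO tunicamycin 1, 3 or 4 (adjusted p = 0.0684, 0.0867, 0.0692, 0.0742, 0.0567, 0.0595 and 0.0661), and in the limma fits on FPKM, where the adjusted p was 0.0981 to 0.147. The call held without the library labelled LKO vehicle 1.

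Cyp7a1, the rate-limiting enzyme of the classic route, was the member that lay higher in LKO, without passing. It stood at 40.5, 85.1 and 52.3 CPM in WT vehicle and at 125, 94.2 and 69.5 CPM in LKO vehicle. After tunicamycin it stood at 31.6, 39.8 and 83.2 CPM in WT and at 41.5, 88.0, 63.1 and 47.7 CPM in LKO. Samples differed by up to 3.97-fold and every pair of groups overlapped. The log2 fold change was 0.70 ± 0.35 with vehicle (SE; interval -0.03 to 1.43, adjusted p = 0.619), and 0.46 ± 0.24 averaged over treatments (adjusted p = 0.322). Of the 10 genes it varied most between samples of a group, with a biological coefficient of variation of 0.299, above 96.3% of all genes tested. With tunicamycin averaged over genotypes its log2 fold change was -0.44 ± 0.24 (adjusted p = 0.321), and -0.71 (adjusted p = 0.039) without WT tunicamycin 3.

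Cyp8b1, the sterol 12-alpha-hydroxylase that sets the share of cholic acid, was low in LKO after tunicamycin. It stood at 5.99, 4.42, 6.71 and 7.26 CPM in those 4 samples, from 34 to 67 reads each. WT tunicamycin samples had 6.60, 13.1 and 17.9 CPM, LKO vehicle samples 11.4, 12.5 and 7.58 CPM, and WT vehicle samples 7.53, 14.5 and 14.9 CPM. The LKO tunicamycin samples were below every vehicle sample of both genotypes and overlapped with WT tunicamycin 1. Against WT after tunicamycin the log2 fold change was -1.02 ± 0.31 (SE, adjusted p = 0.121), and against LKO vehicle -0.75 ± 0.29 (adjusted p = 0.328). Without the filter on low counts the genotype difference after tunicamycin passed (adjusted p = 0.00655), while in the 12 other alternatives and the 13 omissions of a sample its adjusted p lay above 0.05, up to 0.393. Cyp27a1, the mitochondrial sterol 27-hydroxylase, was at 78.4 to 98.5 CPM in WT vehicle and at 47.7 to 94.4 CPM in the other groups, and its log2 fold change with tunicamycin in WT was -0.35 ± 0.21 (adjusted p = 0.465).

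Within a sample the synthesis genes were also set against each other, a choice made after the values were seen, so these ratios are given with no test. The ratio of Cyp8b1 to Cyp7a1 in FPKM was 0.447 to 0.891 in the 6 WT samples and 0.136 to 0.416 in the 7 LKO samples, with no overlap. The ratio of Cyp7a1 to Cyp7b1 was 0.0784 to 0.261 in WT, with a median of 0.151, and 0.249 to 0.625 in LKO, with a median of 0.343. The latter ranges overlapped through WT tunicamycin 3 at 0.261 and LKO tunicamycin 1 at 0.249.

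**Figure D3:**
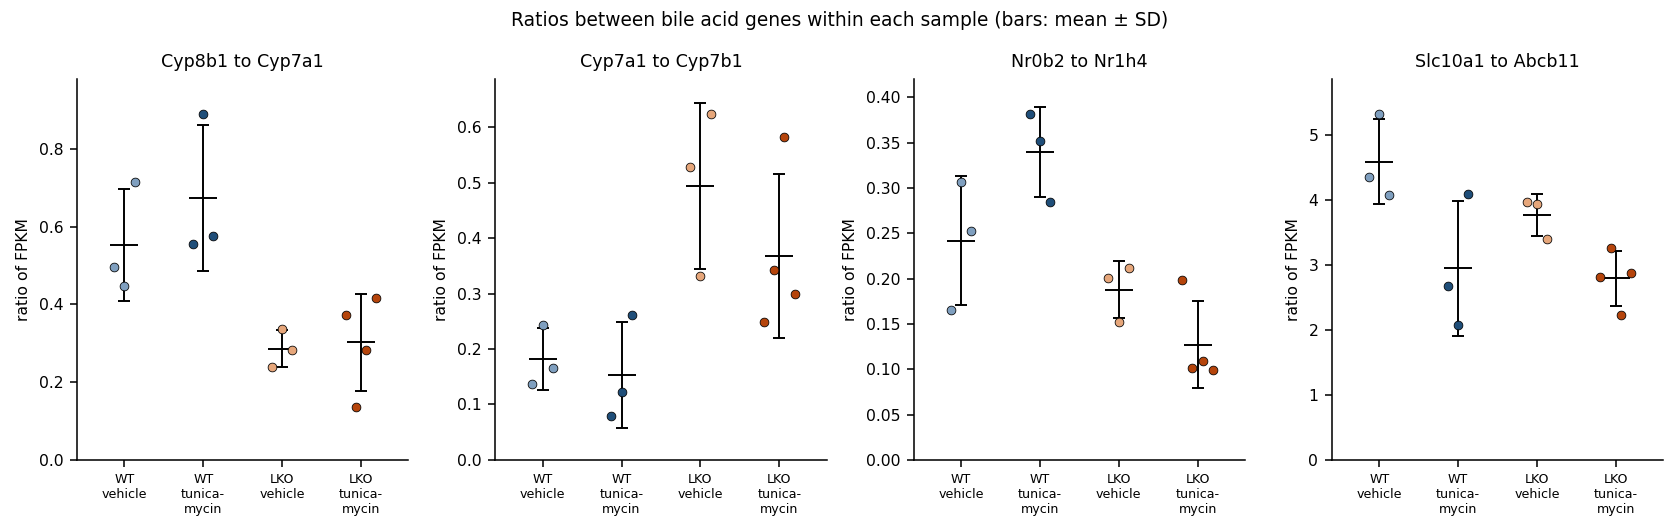
Each point is the ratio of 2 genes' FPKM in 1 liver sample, on axes from 0, with the mean ± SD of each group (n = 3, and n = 4 in LKO tunicamycin). The ratio of Cyp8b1 to Cyp7a1 is 0.447 to 0.891 in WT and 0.136 to 0.416 in LKO, and the ratio of Slc10a1 to Abcb11 overlaps between genotypes.

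Baat was the gene most clearly lower with tunicamycin. It stood at 66.95, 66.65 and 60.3 CPM in WT vehicle, and at 41.1, 32.9 and 53.6 CPM in WT tunicamycin. In LKO it stood at 55.2, 48.5 and 60.1 CPM with vehicle, and at 31.8, 34.6, 37.7 and 40.2 CPM after tunicamycin. The treated samples were below the vehicle samples within each genotype. The log2 fold change was -0.60 ± 0.16 in WT (SE, adjusted p = 0.0921), -0.60 ± 0.14 in LKO (adjusted p = 0.177) and -0.60 ± 0.11 averaged (interval -0.82 to -0.38, adjusted p = 0.0124). The difference between the genotypes' effects was 0.0072 ± 0.212. The averaged call held without each of the 13 samples (adjusted p 0.000208 to 0.046), and was lost only on log2(FPKM + 1) without a filter (adjusted p = 0.0626). Within WT the highest treated sample was WT tunicamycin 3, and without it the WT value was -0.81 (adjusted p = 0.0034) and the LKO value -0.60 (adjusted p = 0.0281). Slc27a5, which activates bile acids with coenzyme A before Baat acts, stood at 111 to 122 CPM in WT vehicle and 109 to 118 CPM in LKO vehicle, and at 92.3 to 115 and 80.2 to 98.1 CPM after tunicamycin. Its averaged log2 fold change with tunicamycin was -0.23 ± 0.09 (adjusted p = 0.131), which passed in 3 of 12 alternatives (0.0248 to 0.212 over the 12). In LKO, where the groups did not overlap, it was -0.34 ± 0.12 (adjusted p = 0.282).

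Other genes differed in the comparison in which Baat was called. S100a8 and S100a9 rose with tunicamycin averaged over genotypes, by 2.51 and 2.34 on the log2 scale (adjusted p = 0.0272 and 0.0257). The sum of these 2 genes was 0.128 to 0.874 CPM in WT vehicle, 0.154 to 7.28 in WT tunicamycin, 0.473 to 1.82 in LKO vehicle and 2.53 to 5.85 in LKO tunicamycin. Trf and Fgb, of the 8 hepatocyte genes tested, rose by 0.96 and 1.16 (adjusted p = 0.0227 and 0.019). Of these 8 genes 4 were higher and 4 lower, and 0 of the lower ones passed. Cps1 was among the lower ones, with group means of 1408 CPM in WT vehicle and 986 in WT tunicamycin. In LKO its means were 1187 CPM with vehicle and 847 after tunicamycin. The Kupffer cell list was higher in 9 of 9 genes and 0 of 9 passed. A list of core clock and clock output genes held Dbp, Tef, Hlf, Nr1d1, Nfil3 and Per2, with Arntl too low to test. Of these 6 genes Tef, Hlf and Per2 fell with tunicamycin (log2 -0.41, -0.56 and -0.59, adjusted p = 0.0161, 0.0107 and 0.0194). The part of these genes in the difference of Baat was not tested.

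Slc10a1 encodes NTCP, which takes bile acids up from blood. It stood at 152, 178 and 137 CPM in WT vehicle and at 98.4, 95.8 and 136 CPM in WT tunicamycin, so that WT tunicamycin 3 lay just below the lowest vehicle sample. LKO samples had 116, 138 and 114 CPM with vehicle and 115, 114, 85.6 and 102 CPM after tunicamycin. The log2 fold change with tunicamycin was -0.50 ± 0.16 in WT (SE, adjusted p = 0.162) and -0.37 ± 0.11 averaged (adjusted p = 0.0676). Without WT tunicamycin 3 these were -0.68 (adjusted p = 0.0169) and -0.46 (adjusted p = 0.00708), and the averaged difference also passed in 6 of 12 other alternatives, DESeq2 among them (adjusted p = 0.0341; 0.0162 to 0.0816 over the 12). Abcb11 encodes BSEP, the pump that exports bile acids into bile. It stood at 134 to 139 CPM in WT vehicle and 120 to 187 CPM in the other groups. Its log2 fold change with tunicamycin averaged over genotypes was 0.18 ± 0.10 (adjusted p = 0.306), the reverse sign of the other 9 genes, of which Cyp7b1 changed sign in 4 of 25 alternatives. Its interval ran from -0.02 to 0.38.

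Nr0b2 had the largest called change of the 10 genes. It stood at 2.75, 4.48 and 2.19 CPM in WT vehicle, and at 5.08, 3.40 and 2.77 CPM in WT tunicamycin. In LKO it stood at 2.60, 2.11 and 2.61 CPM with vehicle, and at 1.995, 1.17, 1.32 and 0.867 CPM after tunicamycin. All 4 LKO tunicamycin samples were below every other sample, and LKO vehicle overlapped with WT vehicle. After tunicamycin the log2 fold change of LKO against WT was -1.51 ± 0.32 (SE; interval -2.19 to -0.83, adjusted p = 0.0405), and averaged over treatments it was -0.94 ± 0.22 (adjusted p = 0.0366). With vehicle it was -0.37 ± 0.30 (adjusted p = 0.781). The tunicamycin effect was 0.26 ± 0.31 in WT (adjusted p = 0.741) and -0.88 ± 0.31 in LKO (adjusted p = 0.295).

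The calls of Nr0b2 rested on 8 to 44 reads per sample and changed with single samples. After tunicamycin the call was lost without WT vehicle 1 (adjusted p = 0.0614), WT tunicamycin 1 (0.199), or LKO tunicamycin 2, 3 or 4 (0.0915, 0.109 and 0.108), and the log2 fold change stayed between -1.74 and -1.22 over all 13 omissions. It was lost too when only the 2 groups compared were fitted (adjusted p = 0.0847) and in 3 of the 4 limma fits on FPKM (0.0585, 0.0952 and 0.0686), those with a pseudocount of 1, where the log2 fold change was -0.706. The averaged call was lost in 8 of 13 omissions: WT vehicle 1 or 2, WT tunicamycin 1, the library labelled LKO vehicle 1, LKO vehicle 2, and LKO tunicamycin 2, 3 or 4 (adjusted p = 0.0684, 0.115, 0.0999, 0.0578, 0.0778, 0.068, 0.0662 and 0.0726). It was lost as well with the replicate number as a block (0.0507) and in the 4 limma fits on FPKM (0.0668 to 0.179), where the log2 fold change was -0.78 with a pseudocount of 0.1 and -0.43 to -0.41 with a pseudocount of 1.

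Nr1h4, the gene of FXR, passed in no comparison. It stood at 31.6 to 37.5 CPM in WT vehicle, 26.7 to 36.4 in WT tunicamycin, 31.0 to 36.4 in LKO vehicle and 27.9 to 30.9 in LKO tunicamycin. Its log2 fold change with tunicamycin averaged over genotypes was -0.22 ± 0.09 (SE, adjusted p = 0.157), and between genotypes all 3 values lay between -0.08 and -0.06. It varied least of the 10, with a biological coefficient of variation of 0.109, above 35.0% of all genes tested. The FPKM ratio of Nr0b2 to Nr1h4 was 0.166 to 0.382 in all WT samples and 0.0989 to 0.211 in all LKO samples, which overlapped. With vehicle it was 0.166 to 0.307 in WT and 0.152 to 0.211 in LKO, and after tunicamycin 0.285 to 0.382 and 0.0989 to 0.199.

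Cell type markers also differed with genotype, beside Cyp7b1 and Nr0b2. Col1a1 and Col3a1, collagen genes of fibroblasts, rose in LKO averaged over treatments by 1.88 and 1.37 on the log2 scale (adjusted p = 0.0101 and 0.0173), 2 of 6 stellate cell and fibroblast genes tested. That list summed to 73.4 to 120 CPM in WT vehicle, 98.2 to 133 in WT tunicamycin, 121 to 165 in LKO vehicle and 109 to 172 in LKO tunicamycin. Of its 6 genes tested, 6 were higher in LKO with vehicle and 5 after tunicamycin. Spp1, 1 of 3 bile duct genes tested, rose by 1.79 (adjusted p = 0.027). The bile duct list summed to 23.1 to 72.8 CPM in WT and 34.5 to 140 CPM in LKO. After tunicamycin Spp1 had group means of 22.4 CPM in WT and 58.1 CPM in LKO. Slc10a2 had 26.1 and 26.4 CPM there, and Sox9 had 4.495 and 3.909 CPM. With vehicle all 3 were higher in LKO. Cftr, too low to test, had 0 reads in every WT sample and 2 to 6 reads in the LKO samples. Of the 8 hepatocyte genes tested, 0 passed between genotypes. The Kupffer cell list was higher in LKO in 9 of 9 genes after tunicamycin and in 3 of 9 with vehicle, and 0 passed. Col1a1 was at 1.15 to 8.26 CPM in the WT samples and at 3.46 to 11.5 CPM in the LKO samples. The part of these cells in the differences was not tested.

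Promoter sequences from RefSeq (GRCm38.p6, 250 bases before to 50 bases after the start site) were matched for 6 of the 10 genes, with 7 start sites. Cyp7a1, Cyp7b1, Slc27a5 and Baat were not matched. Those of Nr0b2 and Cyp8b1 are shown because these had the most negative log2 fold changes of the matched genes in LKO after tunicamycin. Capitals mark AAGGTCA or AAGGCCA, the core recognised by the receptor encoded by Nr5a2 and its relatives (both strands searched), CACGTG (an E-box, the same on both strands) and TATAAA on the gene's strand from position -45 to -16.
Nr0b2, chr4:133553126-133553425, plus strand: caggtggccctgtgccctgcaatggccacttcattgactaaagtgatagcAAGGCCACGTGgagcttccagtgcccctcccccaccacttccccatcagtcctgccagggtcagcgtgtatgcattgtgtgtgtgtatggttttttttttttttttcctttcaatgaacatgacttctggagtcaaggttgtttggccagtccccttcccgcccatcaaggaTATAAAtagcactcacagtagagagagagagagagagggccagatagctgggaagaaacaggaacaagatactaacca
Cyp8b1, chr9:121916256-121916555, minus strand: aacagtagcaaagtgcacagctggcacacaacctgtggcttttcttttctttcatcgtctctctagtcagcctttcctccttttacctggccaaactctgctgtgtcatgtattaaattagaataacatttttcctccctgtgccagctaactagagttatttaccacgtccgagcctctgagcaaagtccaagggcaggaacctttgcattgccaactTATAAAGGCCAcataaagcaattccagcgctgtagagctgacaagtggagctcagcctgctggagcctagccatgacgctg
In the Nr0b2 promoter AAGGCCA lies at -200 to -194 and overlaps CACGTG at -195 to -190, with TATAAA at -28 to -23. In the Cyp8b1 promoter TATAAA at -31 to -26 overlaps AAGGCCA at -27 to -21. Of the 7 promoters these 2 held AAGGTCA or AAGGCCA, as did 10.6% of 32851 promoters in the table, and these 2 held TATAAA in the window, as did 2.14%. CACGTG was in 1 of the 7 and in 7.15% of all. A match is a run of letters and not a bound site.

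Nr0b2 spans chromosome 4, 133553376 to 133556686, on the plus strand, Cyp7b1 chromosome 3, 18071944 to 18243890, and Baat chromosome 4, 49489416 to 49507915, both on the minus strand (RefSeq, GRCm38.p6). In the GENCODE annotation the small gene Gm23686 lies inside Cyp7b1 on its strand, Gm13613 and Gm13614 lie against Abcb11 on the other strand, and the other 8 genes overlap no gene.

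Across the 13 samples, which share libraries and depth, Pearson's r of log2 CPM describes which genes had patterns most like each of the 10. For the synthesis genes these were Socs2, Brip1os and Iqcb1 for Cyp7a1 (r = 0.870, 0.858 and 0.850), Rgn, Aspa and Cyp2d9 for Cyp27a1 (0.945, 0.923 and 0.916), and Kmo, Osgepl1 and Med1 for Cyp7b1 (0.911, 0.882 and 0.871). Cyp8b1 was most like Gm20319, Aes and Nup88 (0.871, 0.864 and 0.863). Among the conjugation genes Baat was most like Ugt2a3, Ces1d and Ndufv1 (0.968, 0.967 and 0.959), the highest values of the 10, and Slc27a5 most like Pcyt1a, Sardh and Pccb (0.942, 0.930 and 0.922). Slc10a1 was most like Adh5, Ces3b and Lactb2 (0.918, 0.899 and 0.886), and Abcb11 most like Whsc1, Tpp1 and Slco2a1 (0.923, 0.847 and 0.838). Nr1h4 was most like Fam188a, Syncrip and Cutc (0.895, 0.832 and 0.827), and Nr0b2 most like Scarb2, Ndufb6 and Ddx3x (0.864, 0.859 and 0.851). Among the 10 themselves Cyp8b1 and Slc27a5 were most alike (0.765, and 0.544 within groups), followed by Slc27a5 and Baat (0.759, and 0.298 within groups) and Baat and Slc10a1 (0.750, and 0.278 within groups). Baat and Abcb11 ran opposite (-0.711, and -0.777 within groups).

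The wider pathway showed few called differences. Of 42 further genes of synthesis and side-chain shortening, transport and regulation, 36 were tested; Ch25h, Cyp46a1, Slc51a, Slc51b, Gpbar1 and Fgf15 were too low. Slco1a1, a basolateral organic anion uptake carrier, was lower in LKO averaged over treatments, at 0.499 of the WT level (log2 -1.002 ± 0.20, SE; adjusted p = 0.0163). It stood at 208 to 248 CPM in WT vehicle, 93.6 to 199 in WT tunicamycin, 76.7 to 137 in LKO vehicle and 43.9 to 108 in LKO tunicamycin, so that WT tunicamycin overlapped with LKO. Without WT vehicle 1 or 2 its adjusted p was 0.0545 and 0.0501, and in the limma fits on FPKM 0.069 to 0.166. Hnf4a, the hepatocyte nuclear receptor that acts on many bile acid genes, fell in LKO after tunicamycin (log2 -0.54 ± 0.12, adjusted p = 0.0405) and averaged over treatments (-0.34 ± 0.09, adjusted p = 0.0475). It stood at 164 to 183 CPM in WT tunicamycin and at 114 to 122 CPM in LKO tunicamycin, with 151 to 156 and 123 to 161 CPM with vehicle. The 2 calls of Hnf4a held in 4 and 3 of 13 omissions of a sample, with log2 fold changes of -0.58 to -0.50 and -0.40 to -0.30. They held in 6 of 13 and 3 of 12 other alternatives, and were lost with total count scaling (log2 -0.39 and -0.27, adjusted p = 0.115 and 0.134), with the replicate block (0.0531 and 0.0726) and in the 4 limma fits on FPKM (log2 -0.39 to -0.36 and -0.23 to -0.20). The call after tunicamycin was also lost with the 2 groups alone (adjusted p = 0.0955). The averaged call was also lost without a filter, without Rn45s and with 14 libraries (adjusted p = 0.0626, 0.0543 and 0.0591).

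**Figure D4:**
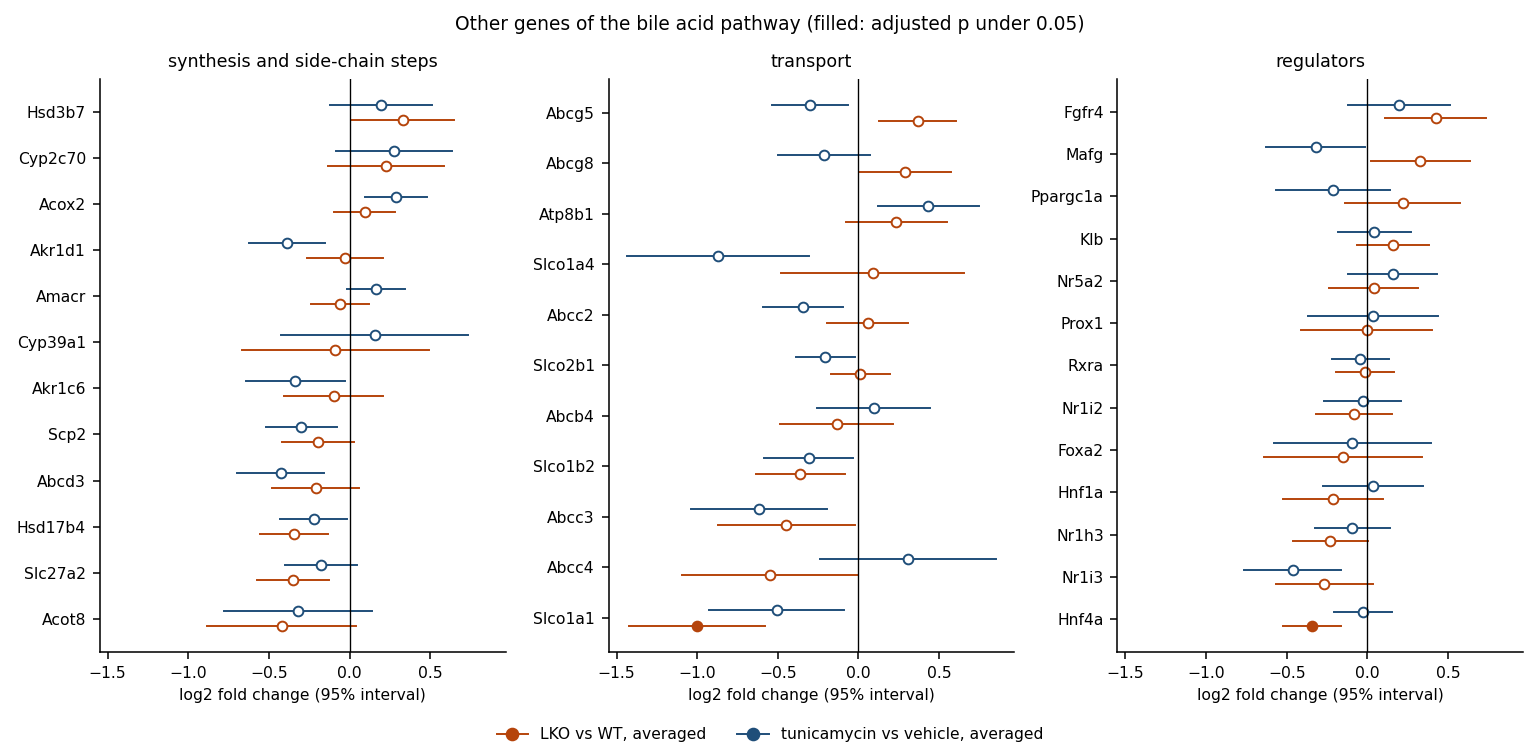
Points give the log2 fold change and 95% interval of 36 further bile acid genes, in LKO against WT (orange) and with tunicamycin against vehicle (blue), each averaged over the other factor. Filled points passed an adjusted p of 0.05: Slco1a1 and Hnf4a in LKO against WT, and 0 of 36 with tunicamycin.

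With tunicamycin 0 of the 36 passed in WT, in LKO or averaged, against 0.363%, 0.0311% and 4.31% of all genes. In the average 16 of 36 had an unadjusted p under 0.05, against 20.2% of all genes. The median log2 fold change of the 36 was -0.14 there, beside 0.01 over all genes. By list, the smallest p values of that average belonged to Akr1d1, the 5-beta-reductase, and Abcd3, a peroxisomal transporter (-0.39 and -0.43; adjusted p = 0.055 and 0.0655), to the carriers Slco1a4 and Abcc3 (-0.87 and -0.62; 0.0701 and 0.086), and to the receptor Nr1i3 and the repressor Mafg (-0.46 and -0.32; 0.0692 and 0.224). In WT the examples were Abcd3 and Acox2 (-0.49 and 0.31; adjusted p = 0.223 and 0.281), Abcg5 and Abcc2 (-0.52 and -0.45; 0.161 and 0.234), and Nr1i3 and Hnf4a (-0.72 and 0.17; 0.126 and 0.556). In LKO they were Akr1d1 and Acox2 (-0.42 and 0.26; adjusted p = 0.289 and 0.405), Slco1a4 and Abcc3 (-1.25 and -0.64; 0.215 and 0.36), and Mafg and Hnf4a (-0.46 and -0.23; 0.326 and 0.461).

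Between genotypes 2 of the 36 passed in the average, 1 after tunicamycin and 0 with vehicle, all lower in LKO, against 2.21%, 0.861% and 0.0415% of all genes. In the same order 12, 9 and 5 of the 36 had an unadjusted p under 0.05, against 18.0%, 15.8% and 8.18% of all genes. The peroxisomal genes Hsd17b4 and Slc27a2 had the smallest p values of the synthesis list in all 3 comparisons and were lower in LKO, by -0.34 and -0.35 averaged (adjusted p = 0.0816 and 0.0915), by -0.37 and -0.42 after tunicamycin (0.204 and 0.173) and by -0.32 and -0.28 with vehicle (0.586 and 0.65). Of the transport list, the sterol exporter Abcg5 was higher in LKO after tunicamycin without passing (0.59, adjusted p = 0.0908), next to Slco1a1 (-0.86, 0.145), and with vehicle Slco1a1 and Slco1b2 were the examples (-1.15 and -0.43; adjusted p = 0.259 and 0.567). Of the regulators, Nr1i3 and Mafg were the examples with vehicle (-0.52 and 0.47; adjusted p = 0.5 and 0.55). The median log2 fold change over the 36 genes was -0.07 averaged, beside -0.0041 over all genes. In the interaction 0 of the 36 passed, against 0.0% of all genes. There 1 of the 36, Hnf4a (-0.40 ± 0.17, adjusted p = 0.937), had an unadjusted p under 0.05, against 4.91% of all genes.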

How the data were processed

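RNA-seq was deposited for 14 libraries of whole mouse liver. Reads per gene were counted by STAR, per the file headers and the submitters' processing notes, which also name Trimmomatic, Cufflinks and the build mm10 without versions. The deposited counts are whole numbers, and the strand column that holds the sense reads of nearly all genes was used. The FPKM values in the authors' deposited table, scaled by gene length, served for levels between genes, for ratios and as an alternative. Of 24352 names in that table, 277 with several entries were left out. The 4 STAR entries that name no gene (unmapped, multimapping, no feature, ambiguous) held 61.3% to 69.0% of a library's reads and stayed out of all totals, and unused columns of per-sample values numbered 0.

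The counts of libraries 3 and 4 of LKO vehicle were summed and their FPKM values averaged, which left 13 samples. Counts were fitted with edgeR 4.0.16 (R 4.3.3; quasi-likelihood test, TMM scaling, its default filter on low counts by group), on all 4 groups together, so that the groups share one estimate of the spread. The 9644 genes left were tested, p-values were Benjamini-Hochberg adjusted over all of them, and a gene was called at an adjusted p under 0.05. CPM were computed on the TMM-scaled libraries, whose totals include the reads on Rn45s, and a prior count of 2 was added for their logarithm. Standard errors (SE) of the fit were derived from each log2 fold change and the F statistic of its quasi-likelihood test. The 95% intervals were built from these errors. Comparisons averaged over the other factor, and those within it, share samples. The script was tested on simulated data.

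Alternatives were DESeq2 1.42.0, limma 3.58.1 on log2 FPKM, total count scaling, RLE size factors in edgeR, no filter, and Rn45s left out. Further alternatives were counts without strand, separate libraries, the replicate number as a block, the 2 groups alone, and leaving out each sample. The members and gene lists were chosen with earlier results of these data known. Genes named beside the 10 were the pathway genes called in a comparison or, in a list with none called, the 2 with the smallest p, and the 3 genes most like each member by Pearson's r. Promoters came from RefSeq (GRCm38.p6).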

Additional observations from a re-analysis of the deposited data

Results flagged for a closer look

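Only LKO tunicamycin held enough samples, 4, to look for a sample far from the others. Among 26 quantities tested in that group 2 stood out, and chance alone gives about 1 in 20. The FPKM ratio of Nr0b2 to Nr1h4 was 0.199 in LKO tunicamycin 1 and 0.0989 to 0.109 in the other 3 samples. The neutrophil gene S100a8 was at 4.42 CPM in LKO tunicamycin 2 and at 1.46 to 1.84 CPM in the other 3.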

How the results depend on the processing

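Counts of called genes moved by over 1.5 times under many alternatives. Below, counts of genes are followed by counts of the 10 members only where these moved. For tunicamycin in WT, 35 genes became 148 (2 members) with total count scaling, 150 (1) with DESeq2, 289 (1) without a filter, 56 with 14 libraries, 69 with the replicate block, 54 without strand, 7 with 2 groups alone, and 3, 0, 6 and 3 on FPKM (pseudocount 1, the same without a filter, pseudocount 0.1, and without the LKO vehicle 2 column, an alternative chosen after seeing the data because Rn45s is listed at 0 there). For tunicamycin in LKO, 3 genes became 35 (1) with DESeq2, 153 (1) without a filter, 5 with 14 libraries, 72 (1) with the replicate block, and 0, 1 and 0 on FPKM. Averaged over genotypes, 416 genes became 810 (3) with total count scaling, 764 (2) without a filter, 668 (2) with 14 libraries, 762 with the replicate block and 19 (0) on FPKM without a filter. DESeq2 called 2 members there and FPKM with a filter 3 members.

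Between genotypes with vehicle, 4 genes became 8 with total count scaling, 20 with DESeq2, 84 without a filter, 12 with 14 libraries, 10 with the replicate block, 25 with 2 groups alone, and 0, 0, 0 and 1 on FPKM. After tunicamycin, 83 genes became 164 with total count scaling, 138 (2) with DESeq2, 261 (3) without a filter, 27 (0) with 2 groups alone, and 39 (0), 7 (0), 39 and 12 (0) on FPKM. Averaged over treatments, 213 genes became 514 without a filter and 41, 43, 34 and 8 on FPKM (0 members in each), and the replicate block left 1 member. The cause was not tested. In their deviations from group means, same-numbered libraries of different groups correlated at -0.119 to 0.143 in 19 pairs, 3 of them over 0.1. Differently numbered libraries correlated at -0.221 to 0.203, with a median of -0.0139. With so few libraries per group these values cannot decide whether the replicate numbers pair the samples.

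Leaving out 1 sample gave 0 to 615 genes for tunicamycin in WT, 0 to 67 in LKO and 59 to 1085 averaged, 0 to 17 between genotypes with vehicle, 0 to 183 after tunicamycin and 62 to 414 averaged, and 0 to 2 in the interaction. Members called were 0 to 2, 0 to 1, 1 to 3, 0 to 0, 0 to 2, 0 to 2 and 0 to 0 in that order. Without WT tunicamycin 1 the tunicamycin effect on Nr0b2 in WT reversed, to -0.035 (adjusted p = 0.984), and the values ran from -0.035 to 0.59 over all omissions. Of 70 member values, 20 others, none over 0.476 in size, changed sign under some alternative.

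Total count scaling moved the median log2 fold change of all genes to -0.18 for tunicamycin in WT, -0.11 averaged, 0.14 between genotypes after tunicamycin and 0.13 in the interaction. It turned 28 higher and 7 lower genes for tunicamycin in WT into 33 and 115, 209 and 207 averaged into 153 and 657, and 30 and 53 between genotypes after tunicamycin into 142 and 22. Averaged over treatments 130 and 83 became 226 and 34, and with vehicle 3 and 1 became 7 and 1. DESeq2 gave 103 and 47 for tunicamycin in WT, 6 and 29 in LKO (2 and 1 in edgeR) and 17 and 3 between genotypes with vehicle. Low depth limits Nr0b2 and Cyp8b1 most.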
